A study of Mus musculus with 12 samples.

Results

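The genes described here are 10 chaperones and co-chaperones of the lumen of the endoplasmic reticulum (ER), Hspa5, Hsp90b1, Calr, Canx, Hyou1, Sdf2l1, Dnajb9, Dnajb11, Dnajc3 and Manf. They were taken by gene name from a table of 54532 genes, by their known function. The choice was made with earlier results of these data known. Their mRNA levels come from 12 RNA-seq libraries of the mouse line ATDC5, labelled as wild-type cartilage progenitor cells, which can be driven towards chondrocytes in culture. All cells grew at 37 °C in high-sugar DMEM with serum. They were exposed for 10 min to 40 °C or 44 °C, or stayed at 37 °C for the same 10 min as the control, and each temperature had 4 biological replicates with 1 library apiece. The interval between heating and RNA extraction is not given in the sources used here, and neither is whether the replicates came from separate cultures, so the p-values measure the spread between these libraries. ATDC5 is a single line, so the values describe that line.

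The ER is the compartment in which secreted and membrane proteins are folded, and cells of the cartilage lineage pass large amounts of collagen and proteoglycan through it. The HSP70-family protein BiP, encoded by Hspa5, binds unfolded chains in a cycle driven by ATP, which J-domain proteins start and nucleotide exchange factors end. Calreticulin and calnexin hold glycoproteins by their sugar chains, and GRP94, encoded by Hsp90b1, acts on later folding intermediates. When unfolded protein builds up in the ER, the sensors encoded by Ern1, Eif2ak3 and Atf6 start the unfolded protein response, whose textbook outcome is more transcription of these chaperones. The heat shock response is a separate pathway for the cytosol and nucleus.

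After 44 °C the mRNA of 6 of the 10 chaperones fell relative to 37 °C, by between 30.4% for Dnajb9 and 44.5% for Hspa5, and none rose. The other 4, Hyou1, Dnajc3, Canx and Dnajb11, did not pass the test, with log2 differences between -0.18 and -0.08. At 40 °C none of the 10 passed the test against 37 °C. Together the 10 genes took 0.571% ± 0.0177 (SD, n = 4) of all counts in the controls. Their share was 0.575% ± 0.0146 (SD, n = 4) after 40 °C and 0.371% ± 0.0128 (SD, n = 4) after 44 °C. In these bulk libraries, fewer cells that express a gene and less of its RNA per cell cannot be told apart.

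The unfolded protein response reaches several of these genes through the ER stress response element (ERSE), in which the letters CCAAT, bound by the factor NF-Y, and CCACG, bound by ATF6, lie 9 bases apart. Promoter windows of 300 bases, 250 before and 50 after the RefSeq start on GRCm38.p6, were held for 8 of the 10 genes, and Hyou1 and Manf had no entry. The matches are printed here to show where the element lies in each gene. Each is written 5′ to 3′ on the strand of the gene, with the 2 blocks in capitals and up to 5 flanking bases on either side. In Calr, as in the second Hsp90b1 match, the element runs on the other strand, so the blocks appear as CGTGG and ATTGG.
Hspa5: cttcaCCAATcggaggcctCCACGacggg
Calr: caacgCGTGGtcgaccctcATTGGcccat
Canx: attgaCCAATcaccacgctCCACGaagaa
Dnajc3: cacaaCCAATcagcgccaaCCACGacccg
Dnajb11: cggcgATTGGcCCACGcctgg
Hsp90b1: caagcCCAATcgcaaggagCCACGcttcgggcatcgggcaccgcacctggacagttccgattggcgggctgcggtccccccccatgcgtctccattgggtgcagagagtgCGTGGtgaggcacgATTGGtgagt

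The printed Hspa5 stretch is chr2:34772020-34772048 on the plus strand, and its element spans positions -65 to -47 from the start. It lies inside the gene span given below for Hspa5, which begins at chr2:34771970, as the RefSeq start lies downstream of that point. The printed Calr stretch is chr8:84847070-84847098 on the minus strand, with the element at -162 to -144. The Canx stretch is chr11:50325795-50325823 on the minus strand (-145 to -127), and the Dnajc3 stretch is chr14:118937822-118937850 on the plus strand (-105 to -87). The Hsp90b1 run of 134 bases, chr10:86705528-86705661 on the minus strand, is longer than the others because it holds 2 elements, at -212 to -194 and at -107 to -89. Dnajb11 had no ERSE. It had the shorter ERSE-II, searched as ATTGGNCCACG, at positions 8 to 18 after the start (chr16:22857847-22857867, plus strand).

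An exact ERSE, searched as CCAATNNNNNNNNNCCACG on both strands, was present in 5 of the 8 windows and in 39 of all 32851 RefSeq windows (0.119%). Among tested genes with a window, it was present in 17 of 10115. The element is already known to act in several of these genes, so its presence here is no test. ERSE-II was present in 12 of all windows (0.0365%). The blocks alone are common: CCAAT was found in 8 of 8 windows and in 37.4% of all windows, and CCACG in 8 of 8 and in 32.8%. These short motifs lie inside the longer ones, so the counts overlap. The letters TGACGTGG (core of the unfolded protein response element), GAANNTTCNNGAA (heat shock element) and TGATGNAAT (amino acid response element) were in none of the 8 windows, and in 0.676%, 0.603% and 0.965% of all windows. Allowing 1 difference in the CCACG block added no window to the 5, while it raised the share of all windows to 0.998%. Sdf2l1 and Dnajb9 held neither ERSE nor ERSE-II in these windows.

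**Figure D1:**
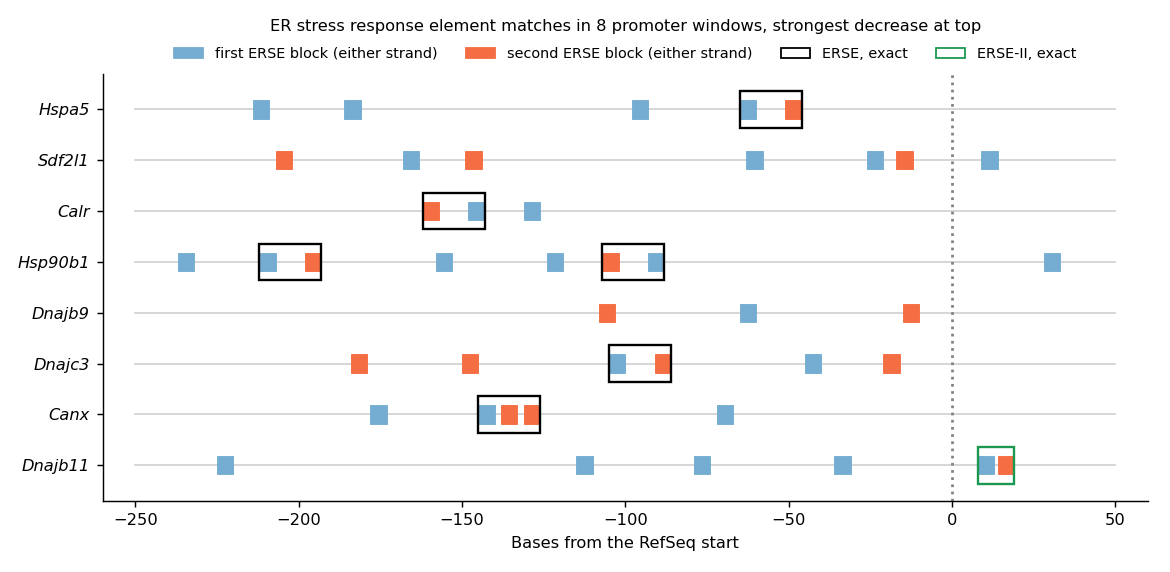
Positions of ERSE blocks in the promoter windows of 8 ER chaperone genes, in bases from the RefSeq start (dotted line), with the gene of the most negative log2 difference between 44 °C and 37 °C at the top. Blue and orange squares are CCAAT and CCACG blocks on either strand, black boxes are the exact ERSE matches in 5 genes, and the green box is the ERSE-II match of Dnajb11.

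BiP is the central HSP70 chaperone of the ER. Hspa5 (ENSMUSG00000026864, chr2:34771970-34777547, plus strand, mm10) had 1725, 1959, 2031 and 1898 CPM (counts per 1000000, with library sizes scaled by TMM, the trimmed mean of M values) in the 37 °C libraries. The 40 °C libraries had 1980, 1968, 2006 and 1890 CPM, within the range at 37 °C. At 44 °C the values were 974, 1064, 1088 and 1102 CPM, so the highest 44 °C library lay far below the lowest of the other groups. The log2 fold change between 44 °C and 37 °C was -0.85 (SE 0.0547; edgeR quasi-likelihood test, adjusted p = 7.05e-07), and this p ranked 3rd of the 14424 genes tested.

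GRP94 is the HSP90 of the ER. Hsp90b1 (ENSMUSG00000020048, chr10:86690209-86705509, minus strand) had 952, 911, 884 and 945 CPM at 37 °C and 919, 858, 941 and 909 CPM at 40 °C. Its 44 °C libraries had 598, 550, 645 and 562 CPM, without overlap with either other group. The log2 fold change between 44 °C and 37 °C was -0.65 (SE 0.0538; edgeR, adjusted p = 8.53e-06), a smaller fall than that of Hspa5 in the point estimate. A comparison of the pair within each library follows further on.

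Hyou1 encodes GRP170, a large HSP70-related protein that exchanges the nucleotide of BiP. Hyou1 (ENSMUSG00000032115, chr9:44379490-44392369, plus strand) had 266, 305, 313 and 292 CPM at 37 °C, 316, 353, 332 and 303 CPM at 40 °C, and 241, 277, 245 and 275 CPM at 44 °C. The 44 °C values overlapped those at 37 °C but lay below all 4 at 40 °C. Against 37 °C the log2 fold change was -0.18 (95% interval -0.32 to -0.04; edgeR, adjusted p = 0.0854), which did not pass the test, although the interval for this single gene lay below 0. Against 40 °C it was -0.33, and Hyou1 fell by that comparison (edgeR, adjusted p = 0.0101).

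The lectin pair parted. Calr, which encodes the soluble lectin chaperone calreticulin (ENSMUSG00000003814, chr8:84841850-84846934, minus strand), had 1335, 1409, 1448 and 1361 CPM at 37 °C and 1454, 1299, 1430 and 1465 CPM at 40 °C. Its 44 °C libraries had 763, 756, 824 and 847 CPM, all below every library of the other groups. The log2 fold change between 44 °C and 37 °C was -0.80 (SE 0.0530; edgeR, adjusted p = 7.85e-07).

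Canx, which encodes the membrane-anchored counterpart calnexin (ENSMUSG00000020368, chr11:50293961-50325673, minus strand), had 598, 668, 698 and 646 CPM at 37 °C, 669, 722, 663 and 646 CPM at 40 °C, and 533, 637, 597 and 657 CPM at 44 °C. The 3 groups overlapped. The log2 fold change between 44 °C and 37 °C was -0.11 (95% interval -0.25 to 0.04; edgeR, adjusted p = 0.294), so the interval leaves out a fall as large as that of Calr.

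The 3 J-domain co-chaperones of BiP also differed among themselves. Dnajb9, which encodes ERdj4, a J protein tied to ER-associated degradation (ENSMUSG00000014905, chr12:44205559-44210326, minus strand), had 34.8, 34.6, 37.6 and 38.7 CPM at 37 °C, 36.1, 32.9, 34.0 and 33.8 CPM at 40 °C, and 26.9, 23.0, 26.6 and 25.0 CPM at 44 °C. Its 44 °C libraries did not overlap with either other group, and it fell by 0.52 on the log2 scale against 37 °C (SE 0.0710; edgeR, adjusted p = 4.98e-04).

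Dnajb11, which encodes ERdj3, a J protein that hands substrates to BiP (ENSMUSG00000004460, chr16:22857845-22879634, plus strand), had 111, 121, 124 and 119 CPM at 37 °C, 125, 131, 117 and 123 CPM at 40 °C, and 101, 120, 108 and 119 CPM at 44 °C. The groups overlapped, and the log2 fold change against 37 °C was -0.08 (95% interval -0.22 to 0.05; edgeR, adjusted p = 0.393). Dnajc3, which encodes p58IPK, also named ERdj6 (ENSMUSG00000022136, chr14:118937976-118981697, plus strand), had 98.5, 108, 117 and 102 CPM at 37 °C, 111, 112, 114 and 106 CPM at 40 °C, and 83.0, 97.5, 99.5 and 97.1 CPM at 44 °C. The 44 °C libraries of Dnajc3 overlapped with those at 37 °C through a single 37 °C library, and replicate 1 at 44 °C stood below the other 3. The log2 fold change was -0.17 (95% interval -0.32 to -0.03; edgeR, adjusted p = 0.0951).

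Sdf2l1 encodes a small partner of ERdj3 (ENSMUSG00000022769, chr16:17130138-17132383, minus strand). It had 59.7, 55.4, 57.8 and 59.0 CPM at 37 °C, 55.0, 48.2, 57.1 and 63.9 CPM at 40 °C, and 38.9, 28.8, 29.7 and 32.6 CPM at 44 °C. The 44 °C libraries were all lower than the rest, with replicate 1 nearest to them. The log2 fold change between 44 °C and 37 °C was -0.84 (SE 0.0967; edgeR, adjusted p = 1.51e-04), close to that of Hspa5, although its partner Dnajb11 did not pass the test.

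Manf encodes a small ER protein that binds BiP and can be secreted (ENSMUSG00000032575, chr9:106838312-106891979, minus strand). It had 196, 213, 219 and 216 CPM at 37 °C, 226, 202, 205 and 188 CPM at 40 °C, and 124, 133, 123 and 133 CPM at 44 °C, again without overlap at 44 °C. It fell by 0.72 on the log2 scale (SE 0.0609; edgeR, adjusted p = 9.24e-06). The annotated span of Manf overlaps Rbm15b on the same strand and Dcaf1 on the opposite strand, which had 45.5% and 63.3% of its mean CPM, and the sources used here do not say if reads were assigned by strand. Neither neighbour fell: Rbm15b had a log2 fold change of 0.04 (edgeR, adjusted p = 0.827) and Dcaf1 rose by 0.20 (edgeR, adjusted p = 0.0193). Overlapping neighbours of the other 9 genes reached at most 0.493% of the CPM of the chaperone gene.

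**Figure D2:**
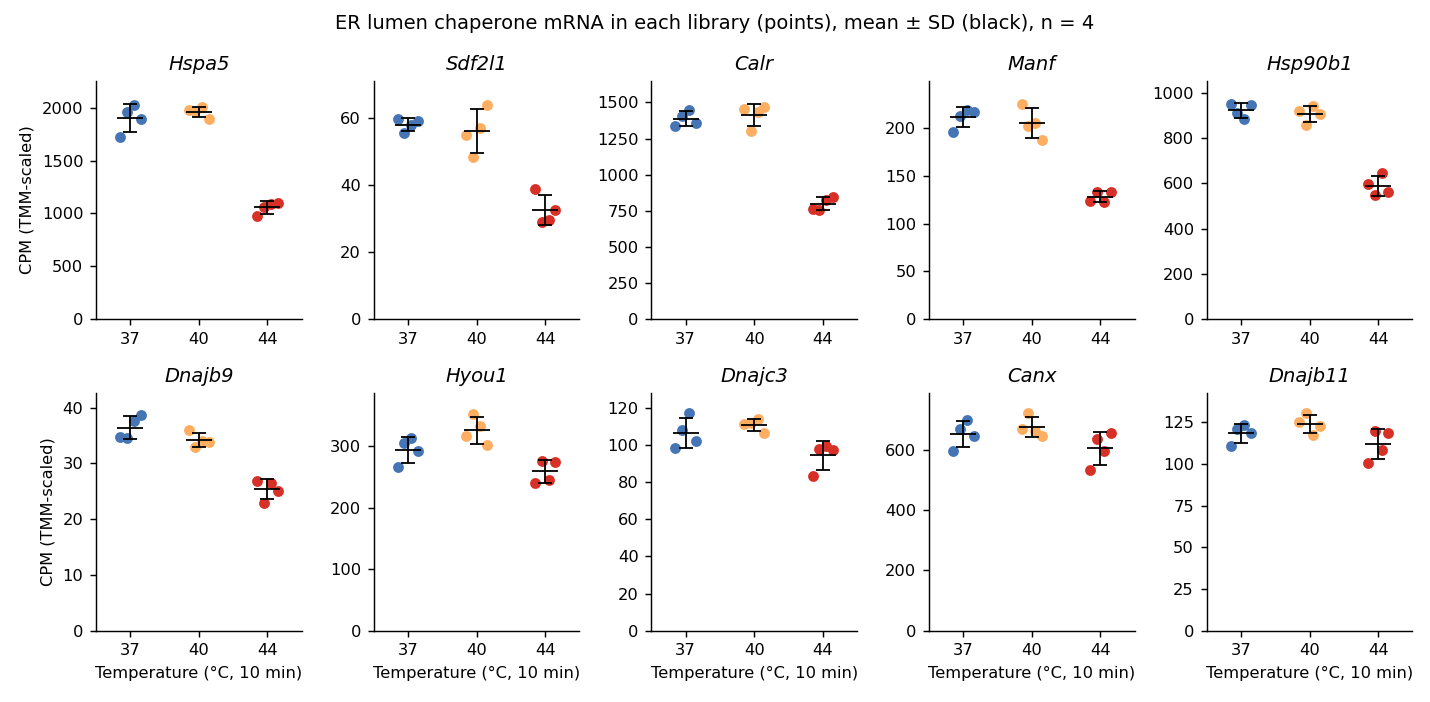
CPM (TMM-scaled, linear axis from 0) of the 10 ER lumen chaperone genes in each of the 12 libraries, by temperature, ordered by the log2 difference between 44 °C and 37 °C. Points are libraries and black bars the mean ± SD of 4, and in the first 6 panels every 44 °C point lies below every point of the other temperatures.

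Set against the whole table, 6 of 10 called lower compares with 7.11% of the 14424 genes tested that were lower at 44 °C than at 37 °C, while 6.58% were higher and 13.7% changed in either direction. The same 6 genes were those whose 44 °C and 37 °C libraries did not overlap, which held for 17.8% of all genes tested. The median log2 fold change of the 10 was -0.59, and all 10 estimates lay below 0, against a median of -0.0003 over all genes tested. All 10 passed the filter on low counts in every comparison.

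In CPM, most of the summed fall lay in Hspa5, Calr and Hsp90b1. The summed mean level of the 10 was 5691 CPM in the controls and 3701 CPM after 44 °C, a difference of 1990 CPM. Hspa5 made up 42.5% of that difference, Calr 29.7% and Hsp90b1 16.8%, together 89.0%. The same genes held 4214 of the 5691 CPM in the controls, and a difference in CPM grows with the level. Abundance and log2 fold change did not go together in every gene. Canx, at 653 CPM in the controls, made up 2.35% of the difference, while Sdf2l1, at 58.0 CPM, had a log2 fold change of -0.84.

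To compare levels between genes, CPM were divided by gene length. This is an annotated length, which need not equal that of the mRNA expressed here, so the order between genes is approximate. At 37 °C Calr (482 CPM per kb) and Hspa5 (450) led, and their ranges over the 4 libraries overlapped, at 463 to 503 and 408 to 480. Hsp90b1 (229) and Canx (139) followed, each apart from its neighbours in the order. Manf (59.9), Sdf2l1 (52.3), Hyou1 (40.6) and Dnajb11 (36.6) came next, of which only Hyou1 and Dnajb11 overlapped with each other. Dnajc3 (20.7) and Dnajb9 (14.3 CPM per kb) were the lowest.

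At 44 °C the order tightened. Calr stood at 277 CPM per kb, Hspa5 at 250, Hsp90b1 at 146 and Canx at 129, and Hsp90b1 (136 to 160) now overlapped with Canx (113 to 140), from which it had been apart at 37 °C. Calr and Hspa5 no longer overlapped, at 263 to 294 and 230 to 261 CPM per kb. Manf (36.4), Hyou1 (35.9) and Dnajb11 (34.5) overlapped with one another, and Sdf2l1 moved down the order, behind all 3 (29.3 CPM per kb), with a range of 26.0 to 35.1 that overlapped theirs.

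The comparison of 40 °C with 37 °C asks whether the milder warming moved these genes. No chaperone of the 10 passed the test, and of all genes tested 0% were called by edgeR. An unadjusted p under 0.05 was reached by 752 genes, 5.21% of those tested, and by 1 of the 10, while DESeq2 called 4 genes, none of them among the 10. The log2 differences ran from -0.09 for Dnajb9 to 0.15 for Hyou1, with a median of 0.03. Hyou1 was the gene with the unadjusted p of 0.0415 (95% interval 0.01 to 0.29; edgeR, adjusted p = 0.823), and the lowest bound of any interval was -0.25, for Sdf2l1. No chaperone had 40 °C libraries free of overlap with those at 37 °C. Of all genes tested 3.83% had, so none among 10 is near that share and no result about them.

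Against 40 °C, the 44 °C libraries showed the same 6 genes lower, and Hyou1 as a 7th, against 3.14% of all genes tested. The log2 fold changes were -0.89 for Hspa5, -0.82 for Calr, -0.79 for Sdf2l1, -0.68 for Manf, -0.62 for Hsp90b1, -0.43 for Dnajb9 and -0.33 for Hyou1 (edgeR, adjusted p from 5.31e-07 for Hspa5 to 0.0101 for Hyou1). Groups did not overlap for 8 of the 10, these 7 and Dnajc3, compared with 10.7% of all genes. Dnajc3 had a log2 fold change of -0.23 (edgeR, adjusted p = 0.0584) and passed the threshold with DESeq2 (adjusted p = 0.0185), without replicate 1 at 37 °C (edgeR, adjusted p = 0.0468) and without replicate 3 at 37 °C (edgeR, adjusted p = 0.0494). Canx (-0.16; edgeR, adjusted p = 0.202) and Dnajb11 (-0.15; edgeR, adjusted p = 0.195) did not pass. Both comparisons with 44 °C share the 44 °C libraries, so they do not count as separate evidence.

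A joint test over the 3 temperatures called 7 of the 10 genes, against 8.21% of all genes tested. They were the 6 and Hyou1, with edgeR adjusted p from 6.07e-07 for Hspa5 and Calr to 0.0183 for Hyou1. The count was 6 without replicate 3 at 40 °C and also 6 without replicate 3 at 44 °C.

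**Figure D3:**
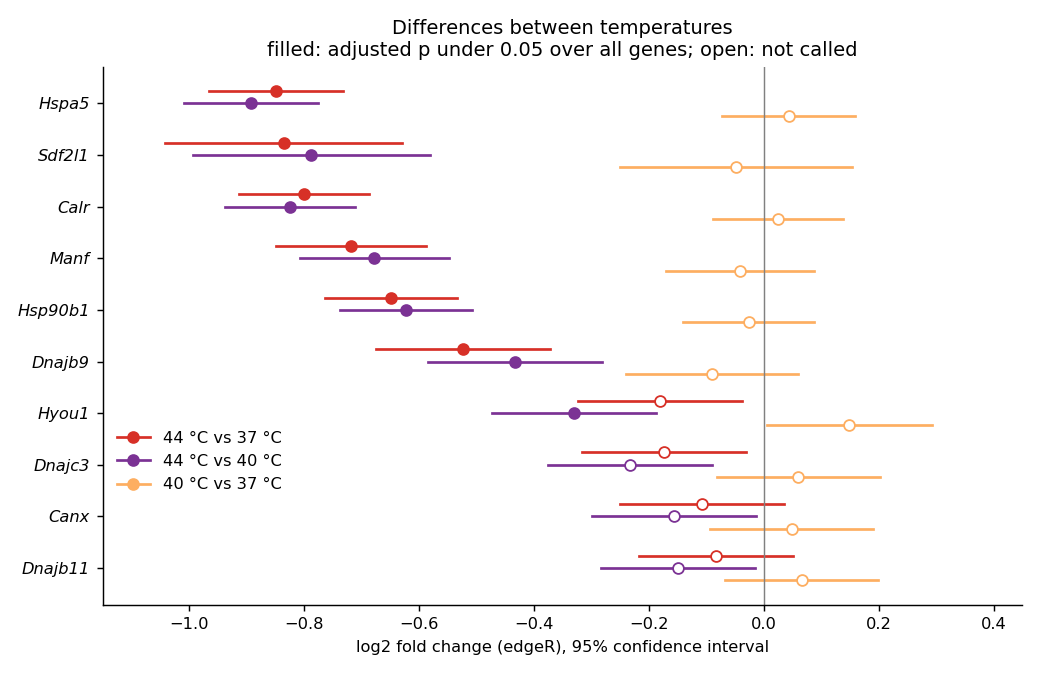
log2 fold changes (edgeR, points) with 95% confidence intervals (lines) of the 10 genes in the 3 comparisons of temperatures. Filled points passed an adjusted p under 0.05 over all genes, as 6 genes did for 44 °C against 37 °C, 7 for 44 °C against 40 °C and none for 40 °C against 37 °C.

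Ratios of 2 genes within a library do not depend on how libraries are scaled, and they describe how unequally 2 genes changed. For 9 pairs the log2 ratio of counts, not divided by gene length, was compared between groups by an exact two-sided permutation test over 70 splits, in which the smallest p possible is 0.0286. For 8 of the 9 pairs it was reached in the comparison of 44 °C with 37 °C, with p adjusted over the 9 pairs of 0.0321. Of single genes tested, 17.8% had no overlap in that comparison, and the share among other gene pairs was not computed. All of these 8 pairs except Hyou1 per Hspa4 set a gene called lower over one not called. The ratios use the same counts as the edgeR test and are not separate evidence. Several pairs also share Hspa5 or Hsp90b1, so the pairs are not separate from one another.

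Among the ER pairs, there were 2.23, 2.11, 2.07 and 2.11 Calr counts per Canx count in the 37 °C libraries, and 1.43, 1.19, 1.38 and 1.29 in the 44 °C libraries. The lectin balance thus moved by -0.69 on the log2 scale, with no overlap (exact p = 0.0286). The counts of Hspa5 per count of its exchange factor gene Hyou1 were 6.48, 6.43, 6.49 and 6.51 at 37 °C, nearly the same in all 4 libraries, and 4.04, 3.85, 4.43 and 4.02 at 44 °C, a change of -0.67 (exact p = 0.0286). Sdf2l1 per Dnajb11, the genes of a protein complex, went from a geometric mean of 0.490 to 0.290, a change of -0.76 (exact p = 0.0286).

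Hspa5 and Hsp90b1 were the pair that did not pass. There were 1.81, 2.15, 2.30 and 2.01 Hspa5 counts per Hsp90b1 count at 37 °C and 1.63, 1.93, 1.69 and 1.96 at 44 °C, which overlap, and the change of -0.20 had an exact p of 0.114. Against 40 °C, where the ratio lay between 2.08 and 2.29, the change was -0.27 without overlap (exact p = 0.0286, adjusted 0.0321).

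The remaining 5 pairs set an ER chaperone beside its relative in another compartment. Hspa5 per Hspa8, the main constitutive cytosolic HSP70, went from 0.972 to 0.600. Hsp90b1 per Hsp90ab1, the constitutive cytosolic HSP90, went from 0.215 to 0.146, and Hyou1 per Hspa4, a cytosolic exchange factor of the HSP110 family, from 0.630 to 0.483. The mitochondrial relatives showed the same direction: Hspa5 per Hspa9 went from 3.19 to 1.55, a log2 change of -1.04 and the largest of the 9, and Hsp90b1 per Trap1 from 5.25 to 3.50. All 5 pairs had an exact p of 0.0286. None of the 5 relatives passed the edgeR test for 44 °C against 37 °C on its own, with log2 fold changes between -0.15 for Hspa8 (adjusted p = 0.339) and 0.20 for Hspa4 (adjusted p = 0.111).

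Between 40 °C and 37 °C no pair passed after adjustment. Hspa5 per Hyou1 was lower by 0.10 on the log2 scale, with a raw exact p of 0.0286 and an adjusted p of 0.257. Between 44 °C and 40 °C 8 of the 9 pairs passed, and Sdf2l1 per Dnajb11 (-0.64; exact p = 0.0571) did not. Of single genes tested, 10.7% had no overlap in this comparison.

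**Figure D4:**
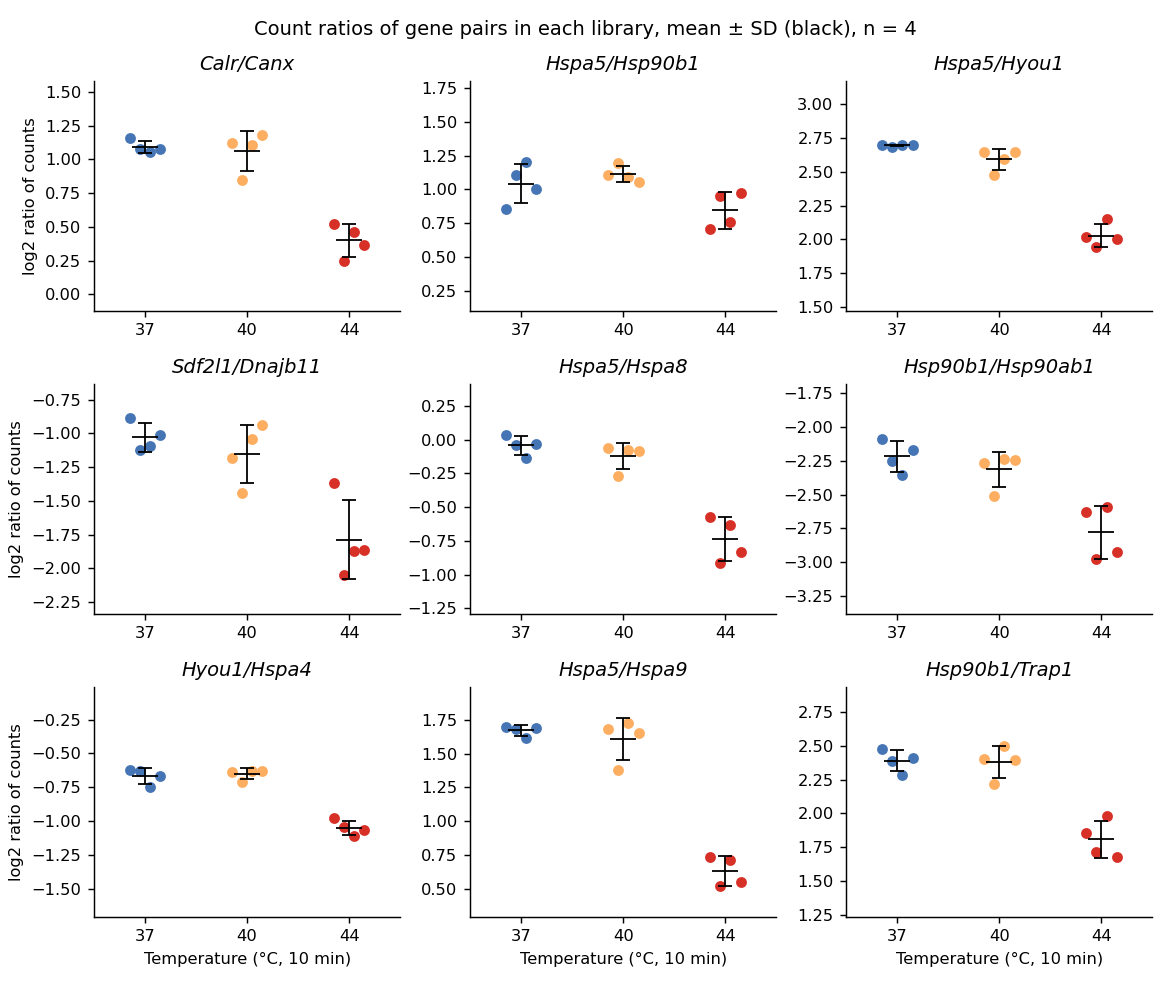
log2 of the count ratio of 9 gene pairs in each library (points; black, mean ± SD of 4) by temperature. Each panel spans the same height on the log2 scale but is centred on its own values, and the 37 °C and 44 °C points overlap only for Hspa5/Hsp90b1.

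Other genes of the ER folding system were read from lists set by function, and their counts stand beside the 7.11% of all genes tested that were lower at 44 °C than at 37 °C, the 6.58% that were higher and the median log2 fold change of -0.0003. Protein disulfide isomerases and ER oxidases, which form and shuffle disulfide bonds, had 7 of 16 genes lower at 44 °C than at 37 °C and none higher, with a median log2 fold change of -0.30. DESeq2 called 11 of the 16. Pdia3, the partner of calreticulin and calnexin, fell from 376 ± 3.34 to 271 ± 10.1 CPM (SD, n = 4; log2 fold change -0.47; edgeR, adjusted p = 1.6e-05). Pdia4 fell by 0.72 and Pdia6 by 0.72 on the log2 scale, close to the fall of Manf. Of 18 other folding factors tested, 7 were lower and 1 was higher (median -0.21), and the lower ones included Serpinh1, the collagen chaperone HSP47 (-0.42), the prolyl isomerase gene Ppib (-0.25) and Fkbp2 (-0.52).

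The calnexin cycle and glycan trimming list had 0 of 12 genes called by edgeR, with a median of -0.04. Some of its genes encode enzymes that trim and reglucosylate the sugar that calreticulin and calnexin read. As 13.7% of all genes tested were called in either direction, 0 of 12 is near that share and no result about the list. At an unadjusted edgeR p under 0.05 there were 3 of the 12. DESeq2 called 2 of the 12, and edgeR without replicate 1 at 44 °C called 3. Uggt1, the folding sensor that reglucosylates glycoproteins, had a log2 fold change of -0.14 (edgeR, adjusted p = 0.0592), Edem1 -0.27 (adjusted p = 0.0749) and Ganab, a glucosidase subunit, -0.10 (adjusted p = 0.141).

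Of 18 ER stress sensors and transcription factors, 3 were lower and 3 higher, and 3 in all were called without replicate 1 at 37 °C or without replicate 4 at 44 °C. Xbp1, whose mRNA is the substrate of the sensor encoded by Ern1, fell from 103 ± 2.11 to 58.3 ± 10.5 CPM (SD, n = 4; -0.82; edgeR, adjusted p = 2.77e-04). Counts per gene do not separate its spliced and unspliced forms. Mbtps1, the protease that activates ATF6, fell by 0.26, while Nfya, a subunit of NF-Y, rose by 0.29 and Atf4, the effector of the sensor encoded by Eif2ak3, rose by 0.35 (adjusted p = 0.0397). Atf6 (-0.04; adjusted p = 0.597), Ern1 (0.08; adjusted p = 0.388), Eif2ak3 (-0.26; adjusted p = 0.139) and Ddit3 (-0.18; adjusted p = 0.355) did not pass the edgeR test.

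ER-associated degradation had 4 of 17 genes lower and 1 higher (median -0.07), the lower ones including Herpud1 (-0.36), the lectin gene Os9 (-0.40) and Sel1l (-0.29). Translocation and N-glycosylation had 3 of 23 lower and 1 higher (median -0.04), with Rpn2 at -0.22, Ssr4 at -0.27 and the signal peptidase gene Spcs3 higher by 0.20. KDEL receptors and coats of ER-to-Golgi transport had 2 of 17 lower, Tmed10 (-0.25) and Sec24d (-0.28), and 2 higher, among them Sec23b (0.26). The 4 of 23 translocation genes and the 4 of 17 transport genes called in either direction are near the 13.7% of all genes tested. Neither count is a result about its list. These small counts leaned on single libraries. Without any 1 of replicates 1, 2 and 4 at 37 °C, 3 degradation genes, 2 translocation genes and 2 transport genes were called in all. Leaving out replicate 2 at 44 °C gave 3 degradation genes and 2 transport genes, leaving out replicate 3 gave 3 degradation genes and 2 translocation genes, and leaving out replicate 4 gave 2 transport genes. At 40 °C no gene of the 7 lists was called against 37 °C by edgeR or DESeq2, with 2 of 121 tested genes at an unadjusted p under 0.05.

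**Figure D5:**
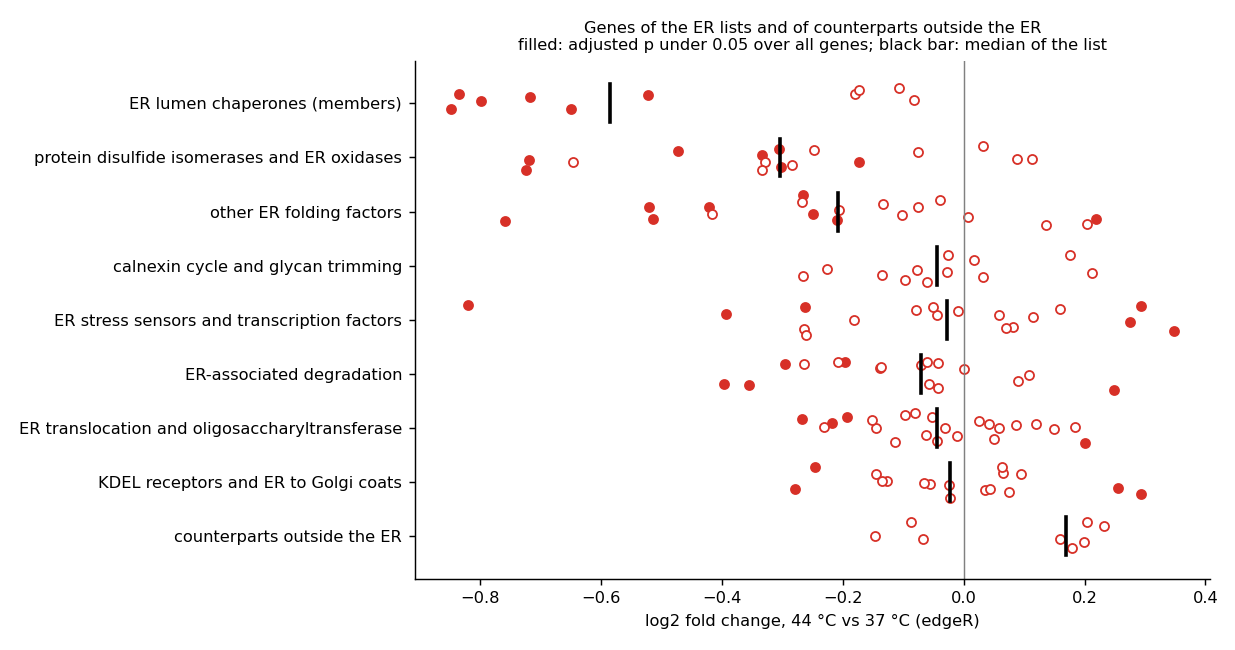
log2 fold changes (edgeR) between 44 °C and 37 °C of each tested gene of the ER lists and of cytosolic and mitochondrial relatives (points; filled where the adjusted p was under 0.05 over all genes, and black bars are list medians). The chaperones have the lowest list median, -0.59, against -0.30 for the disulfide isomerases and oxidases and -0.04 for the calnexin cycle. Their lowest point is Hspa5 at -0.85, and Xbp1 at -0.82, Fkbp14 at -0.76 and Pdia4 at -0.72 lie nearby in other lists. Of these, Fkbp14 had a low level, with means of 7.29 CPM at 37 °C and 4.31 CPM at 44 °C.

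Windows with and without an exact ERSE both occurred among the genes that fell and among those that did not pass. The part of the ERSE in the response was not tested, and Hyou1 and Manf had no window. Exact ERSE matches were present in Hspa5, Hsp90b1 and Calr, which fell, and in Canx and Dnajc3, which did not pass the test against 37 °C. Sdf2l1 and Dnajb9 fell and had none in the window, and Dnajb11, with ERSE-II, did not pass. Over all tested genes with an exact ERSE or ERSE-II, 6 of 26 were lower at 44 °C and none was higher. Without the chaperones these were 3 of 20, Pdia6, Herpud1 and Creld2 (-0.30), compared with 7.27% of the 10107 tested genes that have a window and are not among the 10. Counts of this size describe these genes only.

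The genes outside the group whose levels were most like it were found by Pearson's r, over the 12 libraries, with the mean of the standardised log2 CPM of the 10. The 7576 candidates had a mean of at least 20 CPM, and predicted genes, pseudogenes and genes named by clone or accession were left out. The closest were Stat6 (r = 0.974), Cdc42se1 (0.965), Rab32 (0.964), Pdia3 (0.960), Erap1 (0.957), Cenpa (0.956), Gja1 (0.955) and Tmed10 (0.949). The 12 points share 3 temperatures, so these r mostly carry the step to 44 °C and are given as a description. Rab32, a small GTPase, went from 39.6 to 26.3 CPM, and Gja1, the gap junction gene for connexin 43, from 242 to 205 CPM.

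The libraries held between 16269026 and 19506705 counts each, and 28743 genes had at least 1 read. Of 5 heat shock genes read as a check of the treatment, 3 rose at 44 °C against 37 °C, Hspb1 by 1.63, Hspa1b by 1.12 and Hspa1a by 2.57 on the log2 scale. Mean levels went from 71.3 to 221 CPM for Hspb1 and from 8.68 to 18.8 CPM for Hspa1b. Hspa1a, with the largest fold change, was low throughout, at 0.776 and 4.61 CPM. Hspa1a and Hspa1b are near-identical copies, so their separate values are uncertain. The other 2 did not pass the edgeR test, Hsph1 (0.003; adjusted p = 0.993) and Dnajb1 (0.03; adjusted p = 0.718). Cell markers were checked by lists. Vim (3838 CPM on average), Prrx1 and Twist1 (313 and 166 CPM) were high, while the other 3 of the 6 mesenchymal markers were near 0, Col1a1 at 1.89, Col1a2 at 0.167 and Thy1 at 0.270 CPM. Of the cartilage genes Sox9 had 51.1 CPM while Col2a1 and Acan were under 2 CPM and Col9a1 was at 0 in every library.

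Some marker lists also held called genes at 44 °C against 37 °C, lower in some lists and higher in another. Of all genes tested, 7.11% were lower and 6.58% higher in that comparison. The summed level of 6 mesenchymal markers lay between 4414 and 4916 CPM at 37 °C and between 3486 and 4077 CPM at 44 °C, with 3 of 4 tested genes, Vim, Prrx1 and Twist1, lower. Of 5 smooth muscle and perivascular markers, summing to 203 to 232 CPM at 37 °C and 134 to 163 CPM at 44 °C, all 3 tested ones, Acta2, Pdgfrb and Cspg4, were lower, and Myh11 and Rgs5 were near 0. Of 5 plasma cell markers, with sums of 227 to 249 and 172 to 205 CPM, 1 of 2 tested genes was lower, and this was Sdc1, which carried nearly the whole sum, while Jchain, Mzb1 and Cd79a were near 0. Of 5 endothelial markers, 2 of 3 tested were higher, at sums of 2.49 to 3.72 and 4.22 to 6.33 CPM. The chondrocyte list (8 genes), the macrophage and blood list (6 genes, summing to 36.8 to 51.9 CPM at 37 °C and 28.2 to 40.7 CPM at 44 °C, with Cd68 at 26.9 and Cd14 at 10.7 CPM on average, Adgre1 at 0 and Ptprc at 1 read in all) and the epithelial list (5 genes, mainly Krt18) had no gene called against 37 °C. The part of these genes in the fall of the chaperones was not tested.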

How the data were processed

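RNA from 12 ATDC5 libraries was analysed from 1 deposited table of raw counts per gene, with 1 column per sample and replicates not pooled. The authors made these counts with featureCounts 1.5.0-p3, HISAT2 2.0.5, StringTie 1.3.3b and fastp on mm10, per the submitters' processing notes, which give neither roles nor settings. Strand use and the handling of multi-mapped reads are not given in the sources used here. Gene names, coordinates and lengths are those of the deposited table.

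The model was fitted with edgeR 4.0.16 in R 4.3.3 (genes kept by filterByExpr, minimum count 10, minimum total 15; TMM scaling; quasi-likelihood F-test over all 12 libraries with 1 mean per temperature). This left 14424 genes, with a common biological coefficient of variation of 0.102. A gene was called at a Benjamini-Hochberg adjusted p under 0.05 over all genes tested. Intervals are 95% and come from the fit. CPM were TMM-scaled, and log2 CPM used a prior count of 2. Pair ratios were compared by exact permutation tests. DESeq2 1.42.0, RLE factors, library totals, no filter, 2-group fits, a stricter threshold, a replicate block and leaving out each library were the alternatives. The model and the permutation test were tested on simulated data. A chi-square per gene of 2.85 to 20.9 in the 18 within-group pairs left every library as 1 replicate. Of 185 list symbols, 183 matched by name and 2 by a RefSeq synonym. Promoter windows are from RefSeq (GRCm38.p6).

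The chaperones and lists were chosen with earlier results of these data known. Named genes were the 10 chaperones, the 3 genes of smallest p per ER list, a set of sensors and relatives, and the 8 genes most alike in pattern. Creld2, Fkbp14, Rbm15b, Dcaf1, Hspa1a, Hsph1, Dnajb1 and the marker genes were named after their values were seen.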

Additional observations from a re-analysis of the deposited data

Results flagged for a closer look

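In 4 of 57 groups of 4 libraries, 1 library stood apart from the other 3 by Dixon's criterion, which chance gives in about 1 in 20 groups. Dnajc3 had 83.0 CPM in replicate 1 at 44 °C, against 97.1 to 99.5 CPM in the other 3. Replicate 2 at 40 °C stood apart in 3 ratios to cytosolic relatives. Hspa5 per Hspa8 was 0.8295 there against 0.942 to 0.958 in the others, Hsp90b1 per Hsp90ab1 was 0.176 against 0.208 to 0.212, and Hyou1 per Hspa4 was 0.612 against 0.644 to 0.647. The cause was not tested.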

How the results depend on the processing

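The count of chaperones called for 44 °C against 37 °C was 6 in every alternative run except the replicate block, where it was 7. For 44 °C against 40 °C it lay between 6 and 8, in the joint test between 6 and 8, and for 40 °C against 37 °C it was 0 throughout. Replicate numbers were not taken to pair libraries: 3 of 12 same-number pairs had correlated deviations over 0.1 (range -0.21 to 0.37), and 6 of 12 libraries correlated best with their own number. With the replicate block Hyou1 passed against 37 °C (-0.18; edgeR, adjusted p = 0.0459) and Dnajc3 against 40 °C (-0.24; adjusted p = 0.0280). Counts over all genes moved more, and the cause was not tested. For 40 °C against 37 °C, 4 genes were called by DESeq2, 13 without the low-count filter and 0 to 1 with a library left out. For 44 °C against 37 °C (1975 genes), there were 630 at an adjusted p under 0.01 and 979 to 3355 with a library left out: 979, 1156 and 1063 without replicates 1, 2 and 4 at 37 °C, and 3355, 980 and 1062 without replicates 1, 2 and 4 at 44 °C. For 44 °C against 40 °C (724 genes), there were 270 at the stricter threshold, 1220 by DESeq2, 334 with only the 2 groups and 394 to 1265 with a library left out. The joint test (1184 genes) gave 425, 2065 by DESeq2, 1784 without the filter and 562 to 2125. Scaling by library totals gave 1096 higher and 912 lower against 37 °C (949 and 1026 with TMM), and 396 and 355 against 40 °C (271 and 453). The other 7 ER lists had 34 genes called against 37 °C, 20 at the stricter threshold, and 25 against 40 °C, then 12 at that threshold and 13 with only the 2 groups. Ratios by medians kept the direction of all 9 pairs for 44 °C against 37 °C, but their smallest possible p is 0.0571. Genes whose reads are shared with near-identical copies, and 4 libraries per group, limit what could be resolved.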
